A study of Mus musculus with 24 samples.

Results

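NZB:NZB mice are the parental line that carries the NZB nuclear genome with its own NZB mitochondrial DNA (mtDNA). Their hearts were compared here with their livers across all genes: 3 heart libraries against 3 liver libraries, 6 of the 24 libraries of the series. The members were chosen by label alone. The heart samples were left ventricle and the liver samples median lobe, and all mice were males of 10 weeks. Each library came from the mixed RNA of 4 animals, with 3 such pools drawn from 12 animals, so within a tissue the spread behind a p-value is that among pools of different animals. The remaining groups, used only for comparison, were the conplastic lines BL/6J:NZB (C57BL/6 nuclear genome with NZB mtDNA) and NZB:C57 (NZB nuclear genome with C57 mtDNA), each made by backcrossing for 10 generations, and the parental line BL/6J:C57, again with 3 hearts and 3 livers each. The labels name no transgene, drug or deletion in any group.

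The labels of the tissues held against defining markers. In every NZB:NZB heart Myh6, Actc1, Myl2, Tnnt2, Tnni3, Ryr2 and Actn2 stood between 709 and 8913 normalised read counts, against 0.885 to 42.3 in livers. The hepatocyte markers Alb, Apoa1, Ttr, Fgb and Cps1 stood between 1.99 and 59.9 in hearts, against 3913 to 133075 in livers. A normalised value is the authors' read count times a constant of the library, and values are given below in the order of pools 1 to 3. Recovered reads ran from 3714278 to 8308369 per NZB:NZB heart and from 10809960 to 13022817 per NZB:NZB liver. Normalised values summed to between 643486 and 659892 in these hearts and between 1188570 and 1195570 in these livers. The top 20 genes of a library held 11.5% to 11.9% of its reads in hearts and 26.7% to 27.1% in livers. In bulk tissue, fewer cells of a type and less RNA per cell cannot be told apart, which holds for every result that follows.

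The heart pumps by shortening sarcomeres, in which thick filaments of myosin slide along thin filaments of actin when calcium leaves the sarcoplasmic reticulum and binds troponin. Cardiomyocytes draw most of their ATP from mitochondria, which oxidise fatty acids, lactate and ketone bodies. Hepatocytes make most plasma proteins, turn ammonia into urea, synthesise bile acids and glucose, and clear drugs through cytochrome P450 enzymes. Ketone bodies are made in liver and burned in heart, and many enzymes have one form in striated muscle and another in liver.

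The promoters of genes furthest apart are shown first, because they belong to the members on which the comparison turns. Acta1 and Mup2 had the highest and the lowest log2 fold change under the naming rule. Actc1, also among the highest, and Alb, the second lowest, were added after their values were seen. Each window holds the 250 bases before the annotated gene start on the gene's own strand, from RefSeq on GRCm38.p6. Capitals mark matches to any of the motifs searched on both strands. Motif positions count from that RefSeq start. It differs from the GENCODE position given further on for Acta1, Mup2 and Alb, and the Mup2 window lies inside the GENCODE span of Mup2. Motifs were chosen with the windows in view, and a match is a description, not a site.
Acta1, chr8:123894776-123895025, minus strand: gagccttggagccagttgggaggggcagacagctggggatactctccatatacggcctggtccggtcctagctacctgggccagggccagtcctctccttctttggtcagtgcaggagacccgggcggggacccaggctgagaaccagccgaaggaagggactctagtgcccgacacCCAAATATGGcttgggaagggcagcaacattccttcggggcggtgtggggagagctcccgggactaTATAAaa
Actc1, chr2:114052876-114053125, minus strand: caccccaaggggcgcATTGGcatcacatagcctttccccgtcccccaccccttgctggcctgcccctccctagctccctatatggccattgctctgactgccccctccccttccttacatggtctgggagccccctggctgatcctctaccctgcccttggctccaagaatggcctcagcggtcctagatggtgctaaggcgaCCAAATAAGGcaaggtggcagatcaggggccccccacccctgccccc
Mup2, chr4:60139857-60140106, minus strand: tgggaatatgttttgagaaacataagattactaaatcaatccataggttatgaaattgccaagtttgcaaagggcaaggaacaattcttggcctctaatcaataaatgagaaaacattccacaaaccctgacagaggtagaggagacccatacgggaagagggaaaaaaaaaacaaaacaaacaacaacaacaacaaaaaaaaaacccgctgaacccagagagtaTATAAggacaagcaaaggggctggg
Alb, chr5:90460620-90460869, plus strand: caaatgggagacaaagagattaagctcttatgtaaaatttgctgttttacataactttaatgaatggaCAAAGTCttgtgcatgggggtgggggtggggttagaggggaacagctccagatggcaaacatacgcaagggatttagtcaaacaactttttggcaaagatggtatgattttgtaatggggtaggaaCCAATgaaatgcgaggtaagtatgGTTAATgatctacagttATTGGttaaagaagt
The sarcomeric actins Acta1 and Actc1 each held 1 CArG box, the element bound by serum response factor, at -73 to -64 and -47 to -38 from the gene start. A CArG box was present in 1.40% of 27025 windows of the same length. Alb held the letters CAAAGTC (an HNF4 core, in 3.80% of windows) at -182 to -176 and GTTAAT (part of an HNF1 site, in 6.52%) at -32 to -27. Alb also held CCAAT at -56 to -52 and, on the other strand, at -15 to -11, and Actc1 held it on the other strand at -235 to -231. CCAAT was present in 34.5% of windows. The letters TATAA, present in 23.5% of windows, stood at -7 to -3 in Acta1 and at -25 to -21 in Mup2. No match of the GATA letters AGATAA (10.25% of windows) or of the MEF2 site (0.52%) was found in these 4 windows, and no 2 matches overlapped.

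Most genes differed between heart and liver. Of 14968 genes tested, 5655 (37.8%) were higher and 5593 (37.4%) lower in NZB:NZB hearts at an adjusted p under 0.05 in limma's test on log2(value + 1), or 75.1% in either direction. Fold changes below are log2 differences of heart over liver on that scale, which understates the change of low genes. The 3 hearts and 3 livers did not overlap for 78.2% of genes. A difference of at least 8-fold was found for 754 genes higher in heart (5.04%) and 1023 lower (6.83%). The split depended on scaling: with each library scaled to its own total, the median of all genes moved by 0.73 on the log2 scale and 9607 genes were higher and 2824 lower. Directions of small differences given below are therefore relative to the authors' scaling, and named genes that changed sign or lost their call with totals are marked.

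Contractile genes led the heart side. Acta1, skeletal alpha-actin, which adult heart also transcribes (chromosome 8, 123891769 to 123894751, GRCm38), had 1710.1, 1918 and 1569 in hearts, against 3.84, 2.46 and 2.21 in livers (log2 fold change 8.84, SE 0.40, adjusted p = 2.11e-15 in limma's test). Myh6, the fast cardiac myosin heavy chain (chromosome 14, 54941921 to 54966927), had 7707, 8913 and 8572 in hearts, against 42.3, 23.9 and 13.2 in livers (log2 fold change 8.40, SE 0.80, adjusted p = 1.96e-09). Mybpc3, myosin binding protein C of the heart, had 2445, 2608 and 2399 in hearts, against 7.40, 4.23 and 3.32 in livers (log2 fold change 8.76, SE 0.41, adjusted p = 4.24e-15). In these 3 genes every heart was far above every liver, and the first liver was the highest of the livers. The other genes of the highest 8 were Pln (8.66), Fabp3 (8.63), Myl3 (8.53), Actc1 (8.34) and Hspb7 (8.33). The liver values behind these folds were traces, described further on, so folds of this size depend on the trace as well as on the heart. Pln, Fabp3 and Myh6 share 59.5%, 50.1% and 29.2% of their 31-base words with other genes, so their counts are uncertain to that degree. Of the other named genes measured for sharing, those that also share at least 10%, beside the Mup genes, are A1bg, Acaa1b, Acaca, Bdh1, Cebpb, Ces1c, Ckm, Cox6a1, Cpt1b, Cyp2a4, Cyp2b9, Cyp2c39, Cyp2f2, Cyp3a11, Cyp3a41a, Cyp3a41b, Eno1, Glul, Hadhb, Hamp, Hba-a2, Hbb-bs, Kng1, Ldha, Ldhb, Mat2a, Mb, Myh7, Myl1, Nppa, Oxct1, Pagr1b, Pfkfb2, Pgam1, Pklr, Pkm, Serpina1b, Slc25a5 and Suclg2.

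**Figure D1:**
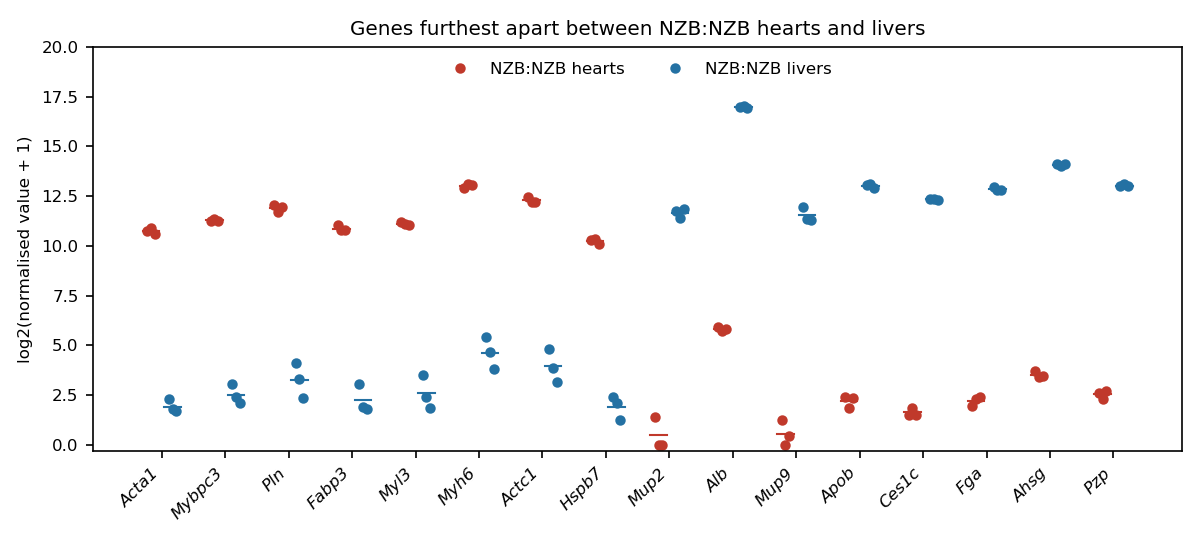
Points are single libraries of NZB:NZB hearts (red, left in each pair) and livers (blue, right) for the 8 highest and 8 lowest genes, on a log2(normalised value + 1) axis, with bars at the mean of 3. Hearts and livers are separated for all 16 genes, and the liver points of the 8 heart genes lie below 6 on this axis.

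Nearly every sarcomere gene was higher in hearts, where 37.8% of all genes were. Of 13 thick filament genes, all tested, 13 were higher, with a median log2 fold change of 7.73, against -0.01 over all genes tested. They ranged from Mybphl, a protein C relative, at 3.61 to Mybpc3 at 8.76. Ttn, the giant titin spring, had 1638, 2391 and 2879.6 in hearts, against 12.1, 8.16 and 4.87 in livers, and Myh7, the slow myosin heavy chain, had 663, 756 and 701 in hearts, against 4.39, 2.85 and 0.774 in livers. Of 11 thin filament genes, 10 were in the table and 10 were higher (median 7.71). Tnni3, the cardiac inhibitory troponin, had 2117, 1913 and 1839 in hearts, against 9.78, 5.50 and 3.76 in livers, and Tnnc1, the calcium-binding troponin, had 1645, 1374 and 1318 in hearts, against 7.13, 4.82 and 2.54 in livers. Of 24 Z-disc and costamere genes, 23 were higher (median 7.04), led by Hspb7, a small heat shock protein of muscle, and followed by Actn2 (8.19), which crosslinks actin at the Z-disc, and Fhl2 (8.14). Myom3, an M-band protein of skeletal muscle fibres, was the exception, with 6.12, 8.35 and 10.1 in hearts, against 14.3, 14.7 and 13.4 in livers (log2 fold change -0.74, SE 0.17, adjusted p = 0.00061), and stood at 0.0585 when libraries were scaled to their totals.

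Genes of calcium handling and excitation followed. Of 20 calcium genes 19 were in the table and 19 were higher (median 5.82). Pln, phospholamban, which restrains the calcium pump, had 4264, 3292 and 3957 in hearts, against 16.1, 8.75 and 4.09 in livers (log2 fold change 8.66, SE 0.48, adjusted p = 9.25e-14). Ryr2, the calcium release channel, had 709, 977 and 1094 in hearts, against 3.66, 1.87 and 0.885 in livers, and Casq2, which stores calcium in the reticulum, had 935, 838 and 907 in hearts, against 3.56, 2.16 and 1.11 in livers. The pump Atp2a2, which liver also uses, differed less on the log2 scale (4.54), with 10069, 9779.5 and 10618 in hearts, against 426, 478 and 406 in livers. Of 29 channel and junction genes 28 were in the table and 28 were higher (median 4.11), among them Kcnip2, a subunit of the transient outward potassium current (7.07), Popdc2, a cAMP-binding membrane protein of heart muscle (7.19), and Gja1, the main ventricular gap junction protein (5.77).

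Peptide hormones and atrial genes were also read in these left ventricles. Of 9 genes 8 were in the table and 8 were higher (median 5.16). Nppa, atrial natriuretic peptide, had 369.7, 439 and 338 in hearts, against 7.22, 3.05 and 1.88 in livers (log2 fold change 6.38, SE 0.44, adjusted p = 5.4e-12), Nppb, its ventricular relative, had 138, 99.4 and 116 in hearts, against 0.548, 0.0983 and 0 in livers, and Corin, the protease that activates the Nppa product, had 104, 103 and 106 in hearts, against 0.64, 0.688 and 0.774 in livers. Of the genes that mark atrium, Myl7 had 65.4, 141 and 89.9 in hearts, against 3.11, 2.26 and 0.664 in livers, Myl4 131, 266 and 172 in hearts, against 6.03, 4.72 and 1.77 in livers and Sln 29.6, 54.8 and 36.0 in hearts, against 0.548, 0.688 and 0.442 in livers. In the second heart pool all 3 were highest.

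Of 26 transcription factors of cardiac development and function, 24 were tested, 22 were higher and 1 was lower (median 2.72). Nkx2-5, the homeobox factor of cardiac muscle, had 37.1, 47.7 and 41.9 in hearts, against 0, 0 and 0.221 in livers (log2 fold change 5.33, SE 0.11, adjusted p = 1.35e-21). Myocd, the coactivator of serum response factor, had 33.0, 46.5 and 48.3 in hearts, against 0.0914, 0.0983 and 0 in livers (log2 fold change 5.34, SE 0.13, adjusted p = 3.05e-20), and Irx4, a ventricular homeobox factor, differed by 4.49. Factors that also act in other tissues differed less, as with Gata4 (1.65) and Mef2d (2.04). Nr2f2, a nuclear receptor of atria and veins, was lower in hearts, with 12.2, 10.3 and 13.01 in hearts, against 26.5, 34.0 and 31.7 in livers (log2 fold change -1.31, SE 0.17, adjusted p = 2.17e-07).

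Nuclear genes of the respiratory chain were higher in hearts, with smaller fold changes than those of the sarcomere. Of 37 nuclear genes of respiratory complex I, 37 were higher, between 0.39 and 2.36 on the log2 scale (median 1.37). Of 14 genes of complexes II and III 14 were higher (median 1.32), and so were 15 of the 15 ATP synthase genes in the table (median 1.503). Ndufs1, the largest complex I subunit, had 788, 657 and 713 in hearts, against 174, 174 and 174 in livers (log2 fold change 2.04, SE 0.11, adjusted p = 5.31e-14), and Uqcrc1, a core protein of complex III, had 1024, 963 and 899.6 in hearts, against 253, 259 and 274 in livers (log2 fold change 1.87, SE 0.09, adjusted p = 3.57e-15). All genes of these 3 lists were also higher in edgeR's test on the recovered reads. They were higher with library totals too, but that scaling moved the median of all genes towards heart and so could hardly test this result. The 18 citric acid cycle and pyruvate dehydrogenase genes had a median of 2.01, with 17 higher. Idh3a, a subunit of the NAD-linked isocitrate dehydrogenase, had 603, 520.3 and 584 in hearts, against 38.7, 31.8 and 36.2 in livers (log2 fold change 3.96, SE 0.09, adjusted p = 5.25e-21), and Cs, citrate synthase, had 1354, 1401 and 1379 in hearts, against 155, 154 and 143 in livers (log2 fold change 3.18, SE 0.07, adjusted p = 8.01e-21). Suclg2, the GTP-forming succinyl-CoA ligase subunit, was lower in hearts (-1.25) and Sucla2, the ATP-forming one, higher (1.89).

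Of 15 genes for energy transfer and oxygen storage 14 were higher and 1 lower (median 6.70). Mb, myoglobin, had 5327, 4599 and 4544 in hearts, against 26.0, 14.6 and 7.63 in livers (log2 fold change 8.29, SE 0.68, adjusted p = 1.58e-10), Ckm, muscle creatine kinase, had 1138, 1109 and 991 in hearts, against 5.76, 2.65 and 1.66 in livers, and Ckmt2, its mitochondrial partner, had 1080.2, 893 and 920.4 in hearts, against 3.93, 2.75 and 1.33 in livers. Acsl1, which activates long-chain fatty acids, was lower in hearts, with 653, 681 and 668 in hearts, against 2009, 1764 and 2088 in livers (log2 fold change -1.54, SE 0.12, adjusted p = 7.63e-11).

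Fatty acid oxidation genes as a list were near the background of 37.8% higher and 37.4% lower. Of 30 genes 14 were higher and 11 lower (median 0.05), and with library totals 19 were higher and 9 lower. The mitochondrial enzymes Hadhb (2.29), Acadl (1.72) and Acadm (1.10) were higher, as were Ucp3 (3.55), an uncoupling protein of muscle, and Pdk4 (3.87), the kinase that turns off pyruvate dehydrogenase. The peroxisomal enzymes Ehhadh (-5.28) and Acaa1b (-8.67) were lower. Oxct1, without which ketone bodies cannot be burned, was higher, with 1326, 1139 and 1252 in hearts, against 12.2, 9.34 and 8.07 in livers (log2 fold change 6.85, SE 0.13, adjusted p = 3.16e-22). Bdh1 and Acat1, which act in both making and using ketone bodies, were lower in hearts (-1.48 and -0.76), although Acat1 turned to 0.11 with library totals.

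**Figure D2:**
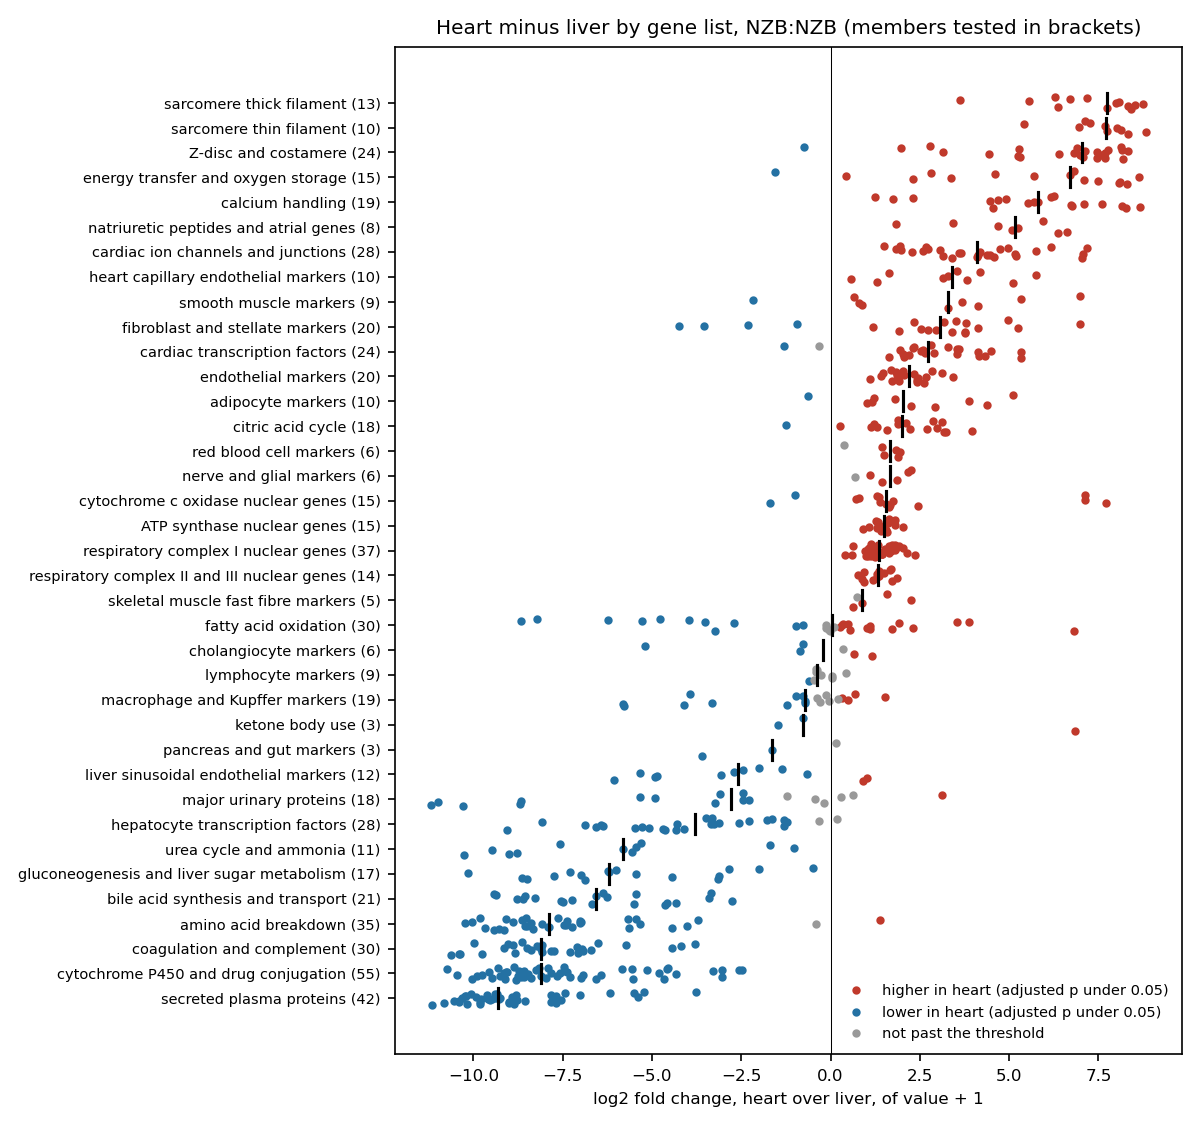
Each point is 1 tested gene of a list, at its log2 fold change of NZB:NZB heart over liver (x axis), with black bars at list medians and the number of tested members in brackets. Thick and thin filament genes lie between 3.61 and 8.84, complex I genes between 0.39 and 2.36, and plasma protein genes between -11.17 and -3.75.

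Where an enzyme or carrier has a heart or muscle form and a liver or general form, the forms were usually swapped between tissues. In 20 of 25 pairs the heart form was higher and the partner lower in hearts. Fabp3, the fatty acid binding protein of heart, averaged 1880.2 ± 197 in hearts, against 4.13 ± 2.68 in livers (log2 fold change 8.63, SE 0.42, adjusted p = 9.01e-15; mean ± SD, n = 3 each). Fabp1, its liver counterpart, averaged 2.74 ± 0.867 in hearts, against 4962 ± 407 in livers (log2 fold change -10.40, SE 0.36, adjusted p = 1.15e-17). The glucose transporter pair Slc2a4, the insulin-responsive form, and Slc2a2, the hepatocyte form, differed by 6.70 and -7.74.

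Along glycolysis and glycogen use, each heart form rose while most partners fell. Pkm and Pklr, the pyruvate kinases, differed by 5.24 and -7.30. Pygm and Pygl, which break down glycogen, differed by 7.21 and -6.20, and Gys1 and Gys2, which build it, by 4.31 and -6.22. The general forms fell by less in Eno3 with Eno1 (7.34 and -1.08) and Pgam2 with Pgam1 (7.06 and -1.31).

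In the mitochondrion, Cpt1b and Cpt1a, the gatekeepers of fatty acid import, differed by 6.82 and -3.24. Acacb and Acaca, whose product malonyl-CoA blocks that step, differed by 1.04 and -2.97. Slc25a4 and Slc25a5, which exchange ADP for ATP, differed by 7.10 and -0.86, and Slc25a5 turned to 0.0102 with library totals. Cytochrome c oxidase contained 3 such pairs. Cox6a2, the muscle form of subunit 6A, averaged 553 ± 26.3 in hearts, against 1.71 ± 0.811 in livers, and Cox6a1 averaged 68.8 ± 5.03 in hearts, against 227 ± 22.9 in livers (7.71 and -1.71). Cox8b and Cox8a differed in the same way (7.12 and -1.004), but Cox8a was not past the threshold with library totals (-0.14). Cox7a1 was higher in hearts (7.13), but so was its general partner Cox7a2 (0.72).

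In 4 more pairs the partner was not lower. Pfkl, the liver phosphofructokinase, rose with Pfkm (1.06 and 5.15), and Atp2a3 rose with Atp2a2 (2.30 and 4.54). Atp2a3 averaged only 2.72 in livers, against 437 for Atp2a2, so Atp2a2 was the main pump form of this pair in livers too. Ldha averaged 676 ± 33.1 in hearts, against 760.4 ± 52.1 in livers and was not past the threshold (log2 fold change -0.17, SE 0.09, adjusted p = 0.0904), but was called higher in hearts with library totals (0.70) and lower without the third liver (-0.22). Ldhb, the form that favours lactate use, averaged 808 ± 80.6 in hearts, against 5.37 ± 0.742 in livers (log2 fold change 6.99, SE 0.19, adjusted p = 1.64e-19). Pdk1 was not past the threshold either (log2 fold change 0.19, SE 0.11, adjusted p = 0.114), but was with library totals (1.04), with size factors (0.24), in DESeq2's test (0.26) and without the second heart (0.28). Further swapped pairs were Fbp2 with Fbp1, Mat2a with Mat1a, Pfkfb2 with Pfkfb1, Phka1 with Phka2 and Ampd3 with Ampd2. Scaled to library totals, 17 of 25 pairs were swapped.

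**Figure D3:**
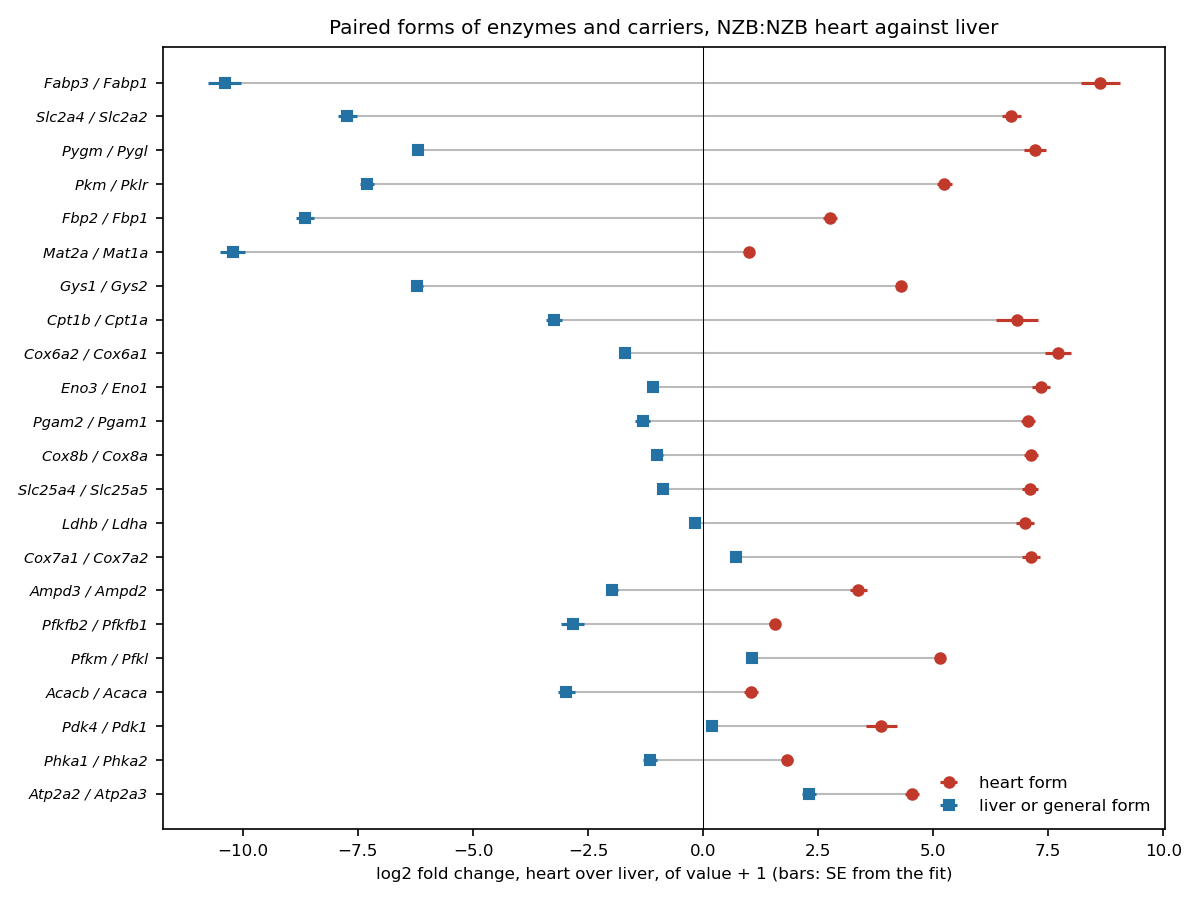
For each of 22 of the pairs the red point is the heart or muscle form and the blue square the liver or general form, at its log2 fold change of NZB:NZB heart over liver, with bars for the standard error of the fit. In 17 of the 22 the heart form was past the threshold on the right of 0 and its partner on the left, and the widest gap is Fabp3 with Fabp1.

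The liver side was led by secreted proteins. Mup2, a major urinary protein that carries pheromones (chromosome 4, 60135932 to 60154289), had 1.67, 0 and 0 in hearts, against 3396, 2675 and 3691 in livers (log2 fold change -11.18, SE 0.39, adjusted p = 1.5e-17). Alb, serum albumin (chromosome 5, 90460897 to 90476602), had 59.9, 52.0 and 54.8 in hearts, against 129130, 133075 and 127013 in livers (log2 fold change -11.17, SE 0.47, adjusted p = 5.75e-16). Apob, the scaffold of very low density lipoprotein, had 4.21, 2.61 and 4.06 in hearts, against 8408, 8948 and 7723 in livers (log2 fold change -10.84, SE 0.38, adjusted p = 1.8e-17). The hearts held 754, 299 and 324 reads of Alb, 21, 0 and 0 of Mup2 and 53, 15 and 24 of Apob, and every liver was far above every heart. The rest of the lowest 8 were Mup9 (-10.98), Ces1c (-10.73), a plasma carboxylesterase, Fga (-10.64), Ahsg (-10.55) and Pzp (-10.49), an alpha-2-macroglobulin relative.

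All 42 plasma protein genes in the table, of 43 listed, were lower in hearts, each by at least 8-fold (median -9.32), against 37.4% lower among all genes. So were the 30 coagulation and complement genes in the table, of 32 listed (median -8.09). Fgb, a fibrinogen chain, had 3.49, 4.002 and 5.41 in hearts, against 7171, 6684 and 7199.7 in livers (log2 fold change -10.39, SE 0.35, adjusted p = 6.82e-18), and Kng1, kininogen, had 1.35, 1.39 and 2.20 in hearts, against 2817, 2508 and 2588 in livers. The smallest difference among plasma proteins was that of Hamp, hepcidin, which restrains iron release, with 2.70, 3.13 and 1.86 in hearts, against 47.7, 28.8 and 73.0 in livers (log2 fold change -3.75, SE 0.27, adjusted p = 1.01e-11).

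Genes of liver metabolism were lower in hearts with few exceptions. Of 56 genes for cytochrome P450 enzymes and drug conjugation 55 were in the table and 55 were lower (median -8.11), with Cyp3a11 at 1.75, 2.96 and 2.20 in hearts, against 4672, 4645 and 4378 in livers. All 21 bile acid genes were lower (median -6.55), led by the uptake carriers Slco1b2 (-9.42) and Slco1a1 (-9.36). Of 12 urea cycle and ammonia genes 11 were in the table and 11 were lower (median -5.82). Cps1, which fixes ammonia in the first step, had 1.99, 2.44 and 2.87 in hearts, against 4226, 3913 and 4496 in livers (log2 fold change -10.27, SE 0.36, adjusted p = 2.01e-17), and Otc, the next enzyme, had 0.318, 0.348 and 0.169 in hearts, against 667, 624 and 681 in livers. Glul (-1.68), which binds ammonia as glutamine, and Slc25a13 (-1.03), the aspartate carrier, differed least, and Slc25a13 was not past the threshold with library totals (-0.16). All 17 genes of gluconeogenesis and liver sugar metabolism were lower (median -6.20), but 16 with library totals and 16 with size factors. G6pc, which releases free glucose, had 0, 0 and 0.338 in hearts, against 631, 261 and 374 in livers (log2 fold change -8.49, SE 0.27, adjusted p = 2.32e-18 in limma's test).

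Of 35 genes of amino acid breakdown, 33 were lower (median -7.89) and 1 was higher. Mat1a, which makes S-adenosylmethionine in liver, had 1.51, 1.04 and 1.52 in hearts, against 2896, 2558 and 2988 in livers, and Uox, urate oxidase, had 0.635, 0.696 and 0.845 in hearts, against 1551, 1532 and 1559.7 in livers. Got1, the cytosolic aspartate aminotransferase that heart uses in the malate-aspartate shuttle, was higher, with 440.1, 388 and 388 in hearts, against 177, 115 and 182 in livers (log2 fold change 1.38, SE 0.16, adjusted p = 3.36e-08). Of 28 hepatocyte transcription factors 26 were lower and 2 were not past the threshold (median -3.79). Hnf4a, the nuclear receptor at the centre of hepatocyte identity, had 0.318, 0.348 and 0 in hearts, against 565, 708 and 653 in livers (log2 fold change -9.05, SE 0.19, adjusted p = 1e-21), and Creb3l3, a membrane-bound factor of fasting metabolism, had 0.238, 0.174 and 0.845 in hearts, against 366, 374 and 377 in livers. Prox1 (-1.22), which also specifies lymphatic vessels, and Cebpb (-1.30), which also acts in fat and immune cells, differed least among the 26, and Cebpb was not past the threshold with library totals (-0.48).

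Cell types other than cardiomyocytes and hepatocytes also marked each tissue. All 20 general endothelial markers were higher in hearts (median 2.20), and 10 of 10 markers of heart capillaries (median 3.41), with Cav1, the coat protein of caveolae, at 401, 352 and 351 in hearts, against 6.40, 5.90 and 5.42 in livers (log2 fold change 5.74, SE 0.15, adjusted p = 9.57e-20). Of 12 markers of liver sinusoidal endothelium 10 were lower. Stab2, a scavenger receptor of sinusoids, had 0.238, 0.348 and 0.676 in hearts, against 97.9, 87.9 and 95.6 in livers (log2 fold change -6.07, SE 0.17, adjusted p = 2.58e-19), while Lyve1 (1.02) and Stab1 (0.92), found on other vessels and macrophages too, were higher. Kupffer cell markers were close to 0 in hearts: Clec4f had 0.0794, 0.174 and 0 in hearts, against 66.5, 50.5 and 59.6 in livers and Cd5l 0.0794, 0.348 and 0.338 in hearts, against 84.4, 64.5 and 60.8 in livers. Over the whole macrophage list of 19, 4 were higher and 10 lower, where 37.8% and 37.4% of all genes were, and the sign of the median turned with library totals (-0.70 and 0.15).

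Mesenchymal markers also went both ways. Of 20 fibroblast and stellate cell markers 16 were higher and 4 lower. Col1a1 (3.76), Dpt (4.12) and Gsn (5.24) were higher, and Reln, Lrat and Hgf, which mark stellate cells of the liver, were lower (-4.24, -3.54 and -2.30). Des is both a stellate cell and a cardiomyocyte gene and had 994, 988 and 871 in hearts, against 7.95, 5.70 and 5.86 in livers. Of 9 smooth muscle markers tested 8 were higher and 1, Mylk, was lower (-2.17). Markers of nerve and glia were low but higher in hearts in 5 of 6, as with Cdh19, at 3.81, 3.48 and 3.21 in hearts, against 0, 0 and 0 in livers, at least 11.7-fold higher when 3 reads per liver are taken as the floor.

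Pools differed in 2 of these marker groups. The adipocyte markers Cfd and Adipoq had 14.9, 34.1 and 16.7 in hearts, against 0.0914, 0 and 0 in livers and 4.29, 12.5 and 5.58 in hearts, against 0.0914, 0 and 0 in livers, and the second heart was highest in both. Haemoglobin Hba-a2 had 60.7, 385 and 377 in hearts, against 129, 74.2 and 39.4 in livers and Hbb-bs 1308, 2378 and 2667 in hearts, against 453, 527 and 605 in livers, with the first heart lowest in both. The call for Hba-a2 was lost without heart 2, heart 3 or liver 3, at 1.06 to 1.07 on the log2 scale. Of 11 adipocyte markers in the table, 10 were tested, 9 were higher and 1, Pparg, was lower, although 0 were called lower with library totals. The summed value of the adipocyte markers ran from 389.9 to 432.4 in hearts and from 20.9 to 23.7 in livers. Of 6 red cell markers tested 5 were higher, and their summed value ran from 2864 to 5598 in hearts and from 1025 to 1416 in livers. The next lists were short, and their counts are to be read against the 37.8% higher and 37.4% lower of all genes, which the cholangiocyte list was near. Of 9 lymphocyte markers tested 1 was lower, whereas with library totals 0 were lower and 1 was higher. Of 6 cholangiocyte markers 2 were higher and 3 lower, and of 3 pancreas and gut markers 2 were lower. Of 5 fast skeletal muscle markers tested 4 were higher, with Myl1 at 4.61, 4.87 and 3.72 in hearts, against 0.183, 0.197 and 0 in livers.

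Heart transcripts were present in every NZB:NZB liver in small amounts. Over 32 genes listed as restricted to cardiomyocytes, the summed value in the livers was 0.598%, 0.355% and 0.257% of its mean in NZB:NZB hearts (0.403% ± 0.176, SD, n = 3), from 3236, 1786 and 1149 reads. All 32 genes had reads in all 3 livers. The median gene stood at 0.313% of its heart level, with the middle 50% of genes between 0.254% and 0.396%. Myh6 stood at 0.315%, Actc1 at 0.322%, Mb at 0.334% and Tnni3 at 0.324%. The first liver was highest for 31 of the 32 genes and the third lowest for 27.

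Of the 32 genes 5 stood above 0.5%. Csrp3, a muscle LIM protein, stood at 2.43% in NZB:NZB livers, with 28.8, 26.5 and 29.97 in the 3 livers, where the first liver was not the highest. In BL/6J:C57 livers it stood at 3.74% of its BL/6J:C57 heart level. Xirp1, an actin-binding protein of intercalated discs, stood at 2.33%, Nppa at 1.06% and Eno3 at 0.536%. Myom2, an M-band protein, stood at 2.02%, with 17.1, 11.2 and 15.5, but at 0.00909% in BL/6J:C57 mice and 3.25% in NZB:C57 mice. Csrp3, Xirp1 and Eno3 were read in every liver of every genotype. They averaged 28.4, 4.52 and 5.55 in NZB:NZB livers, where the sum over the 32 genes ran from 127 to 296. Part of that sum was therefore also present in the livers of the other genotypes.

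The traces differed between genotypes. The sum over the 32 genes, 0.403% ± 0.176 in NZB:NZB livers, averaged 0.0877% ± 0.00940 of the NZB:NZB heart level in BL/6J:NZB livers and 0.0963% ± 0.0126 in BL/6J:C57 livers (SD, n = 3 each), and none of these 6 livers reached the lowest NZB:NZB liver. In NZB:C57 livers it was 0.142%, 0.605% and 0.498%, which overlapped with NZB:NZB. In NZB:C57 liver 1, the deepest of these, 21 of the 32 genes had no read and the median gene stood at 0%. In NZB:C57 livers 2 and 3 the genes with no read numbered 1 and 0, with medians of 0.499% and 0.328% of the NZB:NZB heart level. Of the livers with the NZB nuclear genome, only NZB:C57 liver 1 had no read for most of the 32 genes. Measured against the hearts of their own genotype, which held more of these transcripts, NZB:C57 livers stood at 0.0203%, 0.0865% and 0.0711%, all below the lowest NZB:NZB liver. Most of the sum in BL/6J:C57 livers, which ran from 42.5 to 54.5, came from Csrp3 (39.4 on average), Eno3 (4.39) and Xirp1 (2.72). In BL/6J:C57 livers the median gene stood at 0.00201% of its own heart level, 9 of 32 genes had reads in all 3 livers, and 11 had none in any. Against the mean of the other 3 genotypes' livers, 26 of the 32 genes were higher and 1, Csrp3, lower in NZB:NZB livers, where 15.9% and 13.5% of all genes were. That mean includes the BL/6J:NZB and BL/6J:C57 livers, and a difference from NZB:C57 livers alone was not tested. The sum averaged 0.415% of the NZB:NZB heart level in NZB:C57 livers, against 0.403% in NZB:NZB livers. Myh6 averaged 26.5 ± 14.7 in NZB:NZB livers, 27.3 ± 24.3 in NZB:C57 livers, 0 ± 0 in BL/6J:NZB livers and 0.0319 ± 0.0287 in BL/6J:C57 livers (log2 difference of NZB:NZB from the rest 3.42, SE 0.65, adjusted p = 0.000337). Library titles use different words for BL/6J and NZB nuclear genomes, so a difference in handling and the nuclear genome cannot be told apart. NZB:C57 liver 1 has the same title wording and nuclear genome as NZB:C57 livers 2 and 3, and why this 1 library differed from them was not tested. How the transcripts came into the livers was not tested.

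Liver transcripts were likewise present in every NZB:NZB heart in small amounts. Over 40 hepatocyte-restricted genes the summed value was 0.0591%, 0.0790% and 0.0849% of its mean in NZB:NZB livers (0.0743% ± 0.0135, SD, n = 3), from 2165, 1320 and 1460 reads. The median gene stood at 0.0658% of its liver level, with the middle 50% between 0.0602% and 0.109%. Alb stood at 0.0428%, Fgb at 0.0613%, Ttr at 0.0602% and Cps1 at 0.0577%. The first heart was lowest for 31 of the 40 genes.

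A few genes stood far above the rest. Vtn, vitronectin, stood at 0.733%, with 19.7, 17.7 and 20.1 in hearts, against 2552, 2554 and 2745 in livers, and Hamp at 5.15%. Hamp2, the second hepcidin gene of mice, which was no list member and was chosen after its values were seen, had 24.1, 22.3 and 20.3 in hearts, against 974, 788 and 983 in livers. In BL/6J:C57 mice Hamp2 averaged 0.115 ± 0.1 in hearts, against 91.3 ± 10.2 in livers. Cyp2f2, a P450 of lung and liver, had 0.715, 19.8 and 12.3 in hearts, against 946, 865 and 1067 in livers, with the first heart far below the others. Mup20, darcin, stood at 14.4%, the highest of the 40. It averaged 36.5 in NZB:NZB livers, against 18254 in BL/6J:C57 livers. In hearts Mup20 averaged 5.26 in NZB:NZB mice, against 4.54, 6.38 and 0.129 in BL/6J:C57, BL/6J:NZB and NZB:C57 mice. Hamp averaged 2.56 in NZB:NZB hearts, against 1.34, 2.07 and 2.84 in the same order. Neither gene was past the threshold against the mean of the other hearts.

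In BL/6J:NZB hearts the hepatocyte sum was 0.0303%, 0.0354% and 0.144% of the NZB:NZB liver level, and in NZB:C57 hearts 0.0377%, 0.0867% and 0.0675%, which overlapped with NZB:NZB. In BL/6J:C57 hearts it averaged 0.0275% ± 0.00165 (SD, n = 3), below every NZB:NZB heart. Against the mean of the other hearts, 1 of the 40 genes was lower in NZB:NZB hearts, a share below the 10.8% among all genes. Higher were 4 of the 40, a share near the 8.44% among all genes. The 4 were Alb (1.202, SE 0.38, adjusted p = 0.0307), Serpina1b (1.16, SE 0.29, adjusted p = 0.00575), Cyp2e1 (0.98, SE 0.26, adjusted p = 0.00805) and Gc (0.82, SE 0.27, adjusted p = 0.0353), and the lower one was Vtn. In limma's fit the call for Alb was lost without NZB:NZB heart 1, 2 or 3 (adjusted p = 0.1, 0.0811 and 0.0928), without the second BL/6J:NZB heart or the first NZB:C57 heart, and in edgeR's test (adjusted p = 0.16). That for Gc was lost without any 1 of the NZB:NZB hearts, without BL/6J:NZB heart 1 or 2, without NZB:C57 heart 1 or 3, with a pseudocount of 5 and in edgeR's and DESeq2's tests. Serpina1b was lost without the third NZB:NZB heart (adjusted p = 0.0616) and Cyp2e1 without the second (adjusted p = 0.0502).

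**Figure D4:**
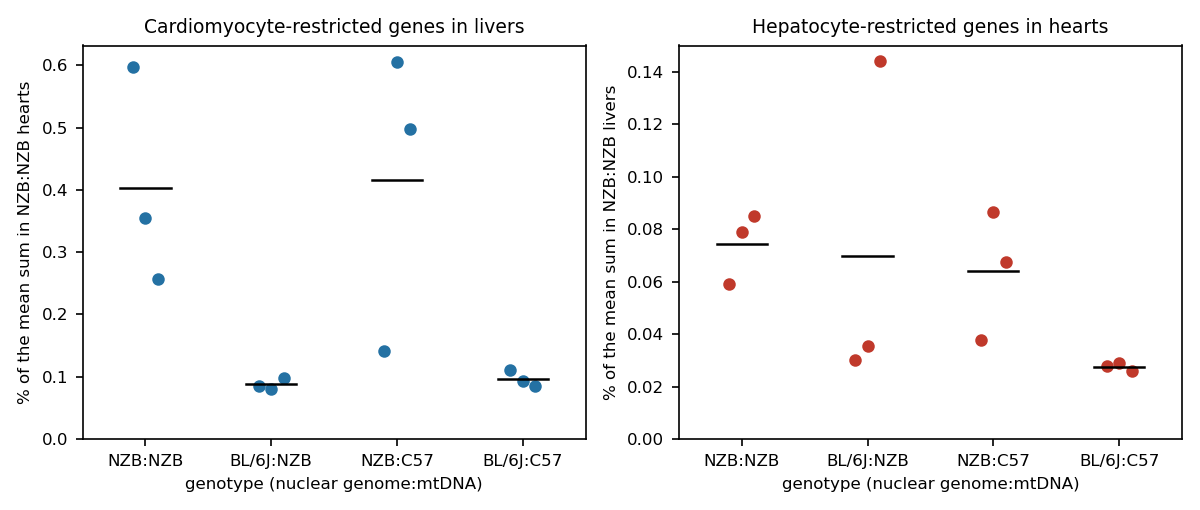
Summed values of 32 cardiomyocyte-restricted genes in each of 12 livers (left) and of 40 hepatocyte-restricted genes in each of 12 hearts (right), as a percent of the mean sum in NZB:NZB hearts or NZB:NZB livers, with bars at the mean of 3. NZB:NZB livers lie between 0.257% and 0.598%, and NZB:NZB hearts between 0.0591% and 0.0849%.

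The major urinary protein genes did not follow the other liver transcripts in the hearts. Of 20 genes 18 were tested, 12 were lower and 1 higher in hearts. The higher one, Mup19 (chromosome 4, 61778324 to 61782269), had 0, 17.7 and 33.5 in hearts, against 0, 0 and 0 in livers (log2 fold change 3.11, SE 1.22, adjusted p = 0.0249), so the call rests on hearts 2 and 3. It was lost without heart 2 (2.55, adjusted p = 0.0995) or heart 3 (2.11, adjusted p = 0.152), and narrowly without any 1 liver (adjusted p = 0.0501 to 0.0503). Mup7 and Mup11 were not past the threshold in DESeq2's test. The first heart had no read of Mup7, Mup11, Mup17, Mup18, Mup19 or Mup20, although it was the deepest of the 3. Mup7 had 0, 38.1 and 59.2 in hearts, against 126, 88.0 and 169 in livers, Mup11 0, 11.3 and 15.7 in hearts, against 28.9, 24.6 and 43.1 in livers and Mup20 0, 7.83 and 7.94 in hearts, against 34.9, 28.3 and 46.3 in livers. Mup2 and Mup9 showed the opposite order, with 1.67, 0 and 0 and 1.35, 0 and 0.338 in the 3 hearts.

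Hearts 2 and 3 held urinary protein genes in other proportions than the livers of their own genotype. In BL/6J:C57 livers Mup7 averaged 50848 ± 12164, Mup19 12165 ± 3744, Mup20 18254 ± 2666 and Mup2 51.9 ± 28.5. Measured against those livers, Mup7 stood at 0.0749% and 0.116% in hearts 2 and 3, Mup19 at 0.146% and 0.275%, and Mup11 at 0.123% and 0.171%. Measured against NZB:NZB livers, Mup7 stood at 29.8% and 46.3% and Mup11 at 35.1% and 48.8% in the same hearts, and Mup2 at 0.0513% in the first heart. As a mean of the 3 hearts, Mup7, Mup19 and Mup11 stood at 0.0638%, 0.140% and 0.0983% of BL/6J:C57 livers. Against BL/6J:NZB livers these genes stood at 0.0611%, 0.152% and 0.108%, and against NZB:C57 livers at 1.42%, 26.0% and 1.24%. Mup genes share 30.1% to 100% of their 31-base words with other genes, so the share of each gene is uncertain, and where these reads came from was not tested.

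**Figure D5:**
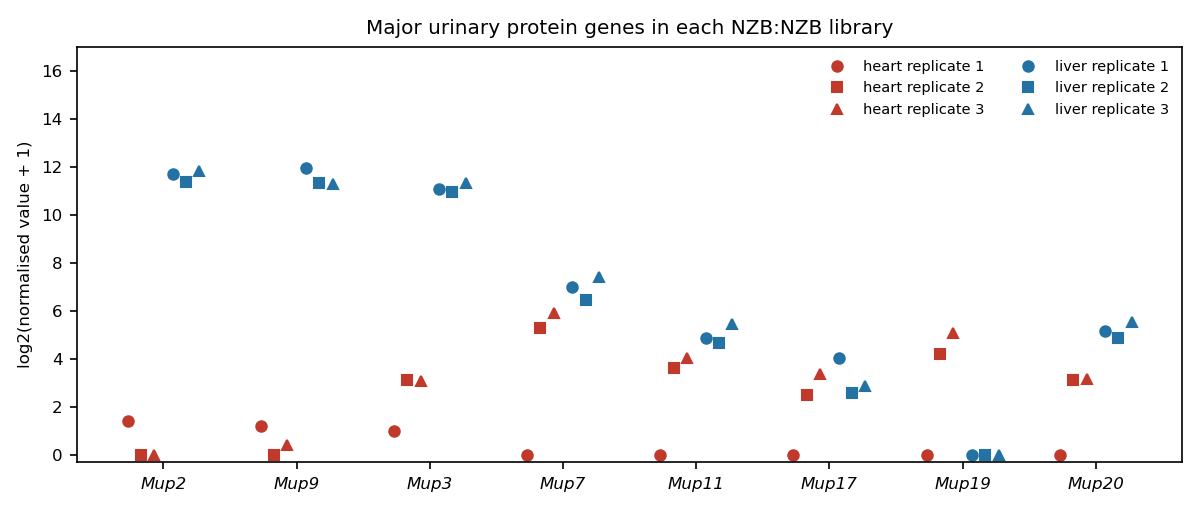
Points are single NZB:NZB libraries (hearts red on the left of each gene, livers blue on the right, symbols for the replicate number) on a log2(normalised value + 1) axis. The first heart is at 0 for Mup7, Mup11, Mup17, Mup19 and Mup20, where hearts 2 and 3 lie between 2.5 and 6, and all 3 livers are at 0 for Mup19.

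The heart minus liver difference was tested against that of the other parental genotype. The difference was higher in NZB:NZB than in BL/6J:C57 mice for 1820 genes (12.2%) and lower for 1821 (12.2%). It was lower for 8 of 13 thick filament genes and higher for 1, lower for 7 of 10 thin filament genes and higher for 0, lower for 14 of 24 Z-disc genes and higher for 2, and lower for 12 of 15 energy transfer genes and higher for 0. The median heart minus liver difference of the 32 cardiomyocyte-restricted genes was 7.78 in NZB:NZB, against 9.47 in BL/6J:C57 mice, and 25 of the 32 were lower and 1 higher. These genes carry the liver traces described above, and the part of the traces in the result was not tested. Of the 37 complex I genes 4 were higher and 1 lower, and of 30 fatty acid oxidation genes 2 were higher and 18 lower.

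The genes furthest apart between the parental genotypes were liver genes. The Mup genes 19, 18, 17, 11 and 7 had the 5 highest differences, from 15.43, SE 1.72, adjusted p = 7.56e-07 for Mup19 to 8.78, SE 1.202, adjusted p = 1.31e-05 for Mup7. Mup7 averaged 128 ± 40.7 in NZB:NZB livers and 50848 ± 12164 in BL/6J:C57 livers. The 5 lowest were Cyp3a41a (-8.66, SE 0.80, adjusted p = 4.38e-08), Cyp2c39, Cyp2a4, Cyp2b9 and Akr1c18 (-5.88, SE 0.19, adjusted p = 9.85e-16). Cyp3a41a, a P450 known for higher levels in livers of females, had 0.318, 0.174 and 0.169 in hearts, against 562, 515 and 413 in livers in NZB:NZB mice, whereas all 6 BL/6J:C57 libraries had 0 reads. A difference with no reads in one group, as for Mup19 and Cyp3a41a, depends on the pseudocount and is no bound. The differences of Cyp3a41a and Akr1c18 were larger in size in edgeR's test (-10.91 and -8.84) but not past the threshold there (adjusted p = 0.9999 for both). All mice were labelled male, and the Y-linked genes Ddx3y, Uty, Kdm5d and Eif2s3y, chosen after their values were seen, were read in all 6 NZB:NZB libraries, between 12.7 and 94.3. Each library pools 4 animals, so these reads cannot show that every animal of a pool was male.

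The same test against NZB:C57 mice, which share the nuclear genome, gave 1147 higher (7.66%) and 2424 lower (16.2%) differences. In edgeR's test 592 were higher and 1514 lower, and in DESeq2's test 478 were higher. NZB:C57 hearts stand apart from all others in the series: their top 20 genes held up to 34.1% of reads, and Myh6 averaged 8397 in NZB:NZB hearts, against 89529 ± 2366 in NZB:C57 hearts. Scaled to library totals, the counts were 6562 higher and 1428 lower. Of the 32 cardiomyocyte-restricted genes 28 were lower, and of 8 natriuretic and atrial genes 8. Bmp10, a growth factor of the atrium, had 7.55, 5.92 and 4.39 in NZB:NZB hearts and 91.6 ± 17.1 in NZB:C57 hearts (-4.69, SE 0.41, adjusted p = 1.51e-08). Mup17, Mup19, Mup18, Mup7 and Mup11 again had the highest differences, from 7.99, SE 0.80, adjusted p = 9.66e-08 for Mup17. Both tests use the same NZB:NZB libraries, so they are not independent of each other.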

How the data were processed

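Polyadenylated RNA (integrity at least 7.9, per the labels) was sequenced on an Illumina Genome Analyzer IIx. Tools named in the submitters' processing notes, without roles, were Bowtie2 2.0.6, edgeR, RSEM 1.2.3 and cutadapt 1.2.1, with the build GRCm38. The authors deposited normalised values per gene, treated here as a signal: each is a read count times a library constant, and within a tolerance of 0.01 at least 100.0% of values in every library were whole reads after division. The normalisation was not given in the sources used here.

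The table held 15323 genes, 98.58% with a symbol. Genes above 1 in at least 3 libraries (14968) were fitted with limma 3.58.1 (trend, R 4.3.3) on log2(value + 1), with 8 group means over 24 libraries and Benjamini-Hochberg adjustment over all genes; an adjusted p comes from this test unless its sentence names edgeR. The unit was planned as counts, so edgeR 4.0.16 and DESeq2 1.42.0 on recovered reads became alternatives. Steps were checked on simulated data. Gene positions are from GENCODE on GRCm38, and promoter windows from RefSeq. Replicates differed beyond sampling noise, and depth limits precision by counting error only.

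Members, lists and tests were chosen with earlier results of these data known. Genes were named as the 8 highest and 8 lowest, up to 4 per list by size plus those against a list's side, all pairs, the 12 highest of each trace list, and the 5 highest and lowest of each interaction; some items are not reported here. Chosen after their values were seen were Acadl, Acadm, Cebpb, Col1a1, Cyp2f2, Ddx3y, Dpt, Ehhadh, Eif2s3y, Gata4, Gja1, Glul, Hadhb, Hamp, Hamp2, Hgf, Kdm5d, Lrat, Lyve1, Mef2d, Mup20, Mybphl, Myh7, Myl7, Mylk, Myom2, Prox1, Slc25a13, Sln, Stab1, Sucla2, Suclg2, Ucp3, Uty, Pparg, Vtn and Xirp1.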

Additional observations from a re-analysis of the deposited data

Results flagged for a closer look

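Genes whose heart minus liver difference itself differed between genotypes were drawn from 2 tests of that difference, in both of which NZB:NZB mice were set against another genotype. Against BL/6J:C57 mice the 5 highest differences, on the log2 scale, were 15.43 for Mup19, 10.43 for Mup18, 10.10 for Mup17, 9.58 for Mup11 and 8.78 for Mup7, all major urinary protein genes. The 5 lowest were -8.66 for Cyp3a41a, -7.56 for Cyp2c39, -6.42 for Cyp2a4 and -6.27 for Cyp2b9, all P450 genes, and -5.88 for Akr1c18, an aldo-keto reductase. Against NZB:C57 mice the highest were 7.99 for Mup17, 7.34 for Mup19, 7.22 for Mup18, 7.18 for Mup7 and 6.61 for Mup11. Among the lowest were -5.28 for Cyp3a41b, -4.86 for A1bg, a plasma glycoprotein, -4.74 for Pagr1b and -4.69 for Bmp10. In NZB:NZB mice A1bg had 0, 0 and 0 in hearts, against 77.9, 117 and 22.2 in livers. Reads of the Mup and Cyp3a41 genes are shared with close relatives, so the size of a single gene's difference is uncertain. What lies behind these differences was not tested.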

How the results depend on the processing

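The heart-liver counts of 5655 higher and 5593 lower stayed within 1.5 times under other pseudocounts, filters, size factors, edgeR (5619 and 5557) and DESeq2 (5716 and 5160), with the 6 libraries alone (5299 and 5533) and with a replicate block in them (5279 and 5520). With library totals they became 9607 and 2824, with the median of all genes at 0.73 against -0.01, and Acat1 (0.11), Ldha (0.70), Myom3 (0.0585) and Slc25a5 (0.0102) changed sign. Among the other values of single genes 2403 kept direction and side, 33 lost and 5 gained the threshold. Totals gave 6562 and 1428 for the difference against NZB:C57, 7233 and 815 against other hearts, and 4564 and 918 against other livers. For the difference against NZB:C57, edgeR gave 592 and 1514 and DESeq2 478 higher; against BL/6J:C57, DESeq2 gave 1174 higher. Same-numbered heart and liver pools did not deviate together (r of 0.013, 0.078 and -0.039), so the numbers were not used as pairs, although this does not show that the animals differ, and a replicate block over all libraries gave 1702 and 1720 against BL/6J:C57 and 1044 and 2328 against NZB:C57.

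The cardiomyocyte sum in NZB:NZB livers was 0.220% with totals. In BL/6J:C57 livers it was 0.0453% with totals, 0.0727% of the same genotype's hearts and 0.000297% for the median gene. In BL/6J:NZB livers these were 0.0443%, 0.0675% and 0.000834%, and in NZB:C57 livers 0.0593% of the same genotype. The hepatocyte sum was 0.137% with totals in NZB:NZB hearts, and in BL/6J:C57 hearts 0.0466% with totals and 0.0177% for the median gene.

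Leaving out single libraries gave 5407 to 5461 higher and 5349 to 5476 lower, 20 to 21 swapped pairs, and 22 to 23 lists with a median above 0. The differences against BL/6J:C57 ran from 1482 to 2240 higher and 1520 to 2228 lower, and against NZB:C57 from 893 to 1055 and 2108 to 2351. Against other hearts they ran from 866 to 1279 and 1150 to 1579, and against other livers from 1799 to 2606 and 1441 to 2264. The NZB:NZB liver trace ran from 0.306% to 0.476% and the heart trace from 0.0691% to 0.0819%. The cause of the changes was not tested.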

Other observations

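The Y-linked RNA helicase gene Ddx3y, chosen after its values were seen, had 85.7, 48.2 and 79.4 in hearts, against 81.7, 47.7 and 94.3 in livers. The second pool was lowest in both tissues. Eif2s3y, a Y-linked translation factor gene, had 67.7, 53.2 and 60.3 in hearts, against 69.2, 63.9 and 59.5 in livers, and Uty 24.4, 20.4 and 25.2 in hearts, against 24.9, 18.8 and 22.5 in livers. The second pool was also lowest for Uty in both tissues and for Eif2s3y in hearts, but not for Eif2s3y in livers. The labels do not say whether pools of the same number came from the same animals.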
